A study of Mus musculus with 21 samples.

Results

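The regions described here are 1286 peaks called for the transcription factor ISL1 in mouse pancreatic islets at which no LDB1 peak was called. They were taken from 2330 ISL1 peaks as those with no base in common with any of 3359 LDB1 peaks, and make up 55.2% of the ISL1 list (exact 95% binomial interval 53.1% to 57.2%, counting error only). They are called ISL1-only peaks below. The other 1044 ISL1 peaks, called shared, each overlapped a different LDB1 peak, and 2315 LDB1 peaks overlapped no ISL1 peak. Both lists were made by ChIP-seq (sequencing of the DNA that an antibody pulls down with its protein) on whole islets of wild-type male CD1 mice aged 8 to 10 weeks, 1 sample per antibody, and use mm9 coordinates. The ISL1 antibody is labelled EP4182 and the LDB1 antibody CLIM-2. An input sample was not analysed here. RNA was measured separately in sorted β-cells of male mice of a mixed SV/129 and C57Bl/6 background, in 5 Isl1-KO, 8 Ldb1-KO and 5 WT libraries. All 3 groups carried the YFP reporter Rosa26LsLeYFP/ LsLeYFP and MIP-CreERTm, whose insulin promoter places a tamoxifen-activated Cre in β-cells. Isl1-KO cells also carried Isl1L/L and were taken at postnatal day 49 after 1 round of 100 µg tamoxifen per g from day 28. Ldb1-KO cells also carried Ldb1L/L, and they and the WT cells were taken at day 56 after rounds of 150 µg per g from days 28 and 35.

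ISL1 is a LIM-homeodomain protein that binds DNA through its homeodomain and other proteins through its LIM domains, and it is made in the endocrine cells of the islet. LDB1 does not bind DNA itself. It binds the LIM domains of ISL1 and related proteins, can join with other LDB1 molecules, and in this way can bring distant DNA elements together. An ISL1 site without a called LDB1 peak is therefore a site where a peak was called in the ISL1 sample and the cofactor did not reach the calling threshold in the LDB1 sample. It does not show that LDB1 was absent, since the LDB1 signal at these sites was not analysed here. Whole islets hold several cell types, and the peak lists carry no value by which a site could be given to one of them or by which the labelled tissue could be checked.

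All peaks in both lists were 200 bp wide, so the rule amounts to a distance of at least 200 bp between peak centres. Few sites lay near that boundary. Among the shared sites the centres were a median of 32 bp apart (quartiles 15 and 59 bp), and 963 of 1044 pairs, 92.2%, lay less than 100 bp apart. Just outside the rule, the 5 shared ISL1 peaks with the smallest overlap had 6, 8, 12, 22 and 28 bp in common with their LDB1 peak and scores of 0.91, 0.58, 0.62, 0.52 and 0.78. Just inside it, the ISL1-only peak at chr5:45987158-45987357 touched an LDB1 peak with 0 bp between them (score 0.52). The next nearest lay 8, 10, 24 and 27 bp from an LDB1 peak, with scores of 0.58, 0.49, 0.55 and 0.55. In all, 14 ISL1-only peaks had an LDB1 peak less than 200 bp from their edge.

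The score in the authors' deposited lists ranks the peaks within a list, and its unit is not stated. Every statement on scores is a description, because the peaks were chosen by overlap in the same samples and there was 1 sample per antibody. ISL1-only peaks had lower scores than shared ISL1 peaks, with a median of 0.55 (quartiles 0.52 and 0.62, range 0.45 to 10.63) against 0.71 (quartiles 0.58 and 0.91, range 0.45 to 4.89). Of the ISL1-only peaks 57 of 1286, 4.4%, scored at least 1.0, compared with 205 of 1044 shared peaks, 19.6%. The scores of each list fell on whole multiples of 1 step, 0.0324 for ISL1 and 0.0609 for LDB1, within a tolerance of 0.0051 for all 69 and 66 distinct values. What a step stands for is not stated. The lowest ISL1 score equalled 14 steps, the median ISL1-only score 17 steps and the median shared score 22 steps. Of the ISL1-only peaks 58.3% had 17 steps or fewer, against 19.0% of the shared peaks, so most ISL1-only scores lay within 3 steps of the lowest one in the list.

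The share of ISL1 peaks without an LDB1 peak was lower at higher ISL1 scores, up to a score of about 1.0. It was 84.7% of 353 peaks scored 0.45 to 0.49 (interval 80.5% to 88.3%), 79.1% of 325 scored 0.52 and 71.9% of 270 scored 0.55. It was 47.5% of 413 peaks scored 0.62 to 0.68 and 24.2% of 248 scored 0.81 to 0.97. Above that it was similar, at 21.1% of 199 peaks scored 1.00 to 1.49 (interval 15.7% to 27.4%) and 23.8% of 63 scored 1.52 or more. The count therefore depends on where the ISL1 list is cut. Among peaks at or above the median ISL1 score 415 of 1176, 35.3%, had no LDB1 peak, and among those at or above the upper quartile 148 of 585, 25.3%.

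**Figure D1:**
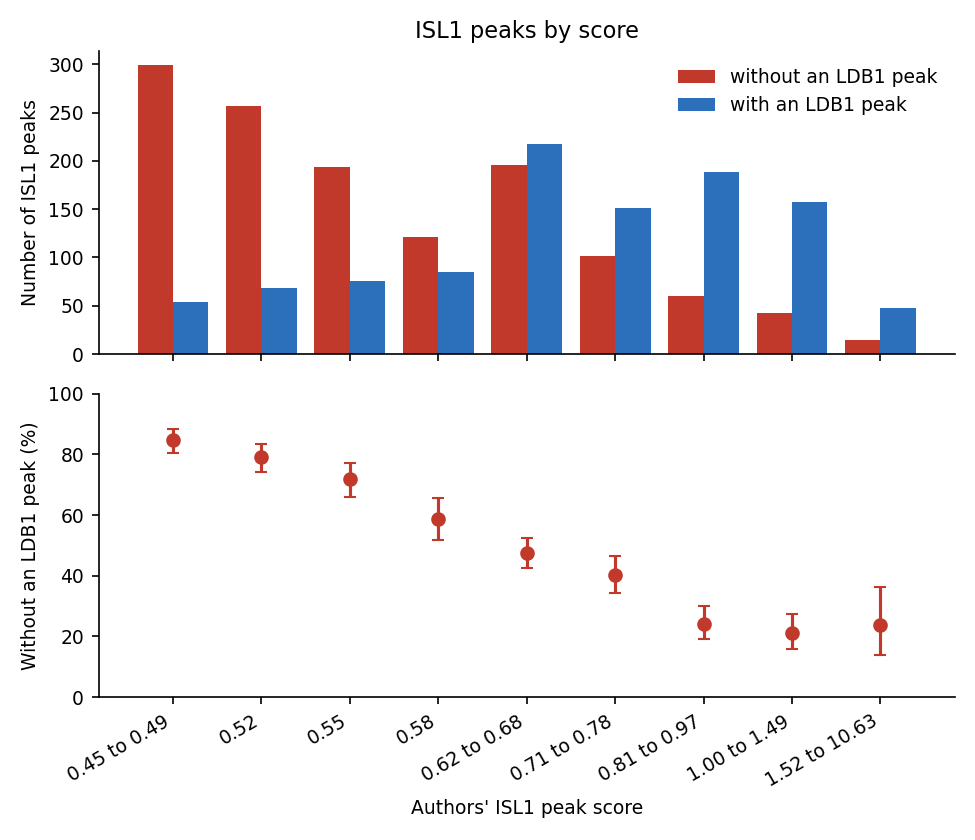
Number of ISL1 peaks without and with an overlapping LDB1 peak (upper panel, bars) and percent without one (lower panel, points with exact 95% binomial intervals), by the authors' ISL1 peak score. The share without an LDB1 peak was 84.7% in the lowest score class and between 21.1% and 24.2% in the 3 highest.

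The strongest ISL1 peak of the whole list had no LDB1 peak. It lay at chr3:53267522-53267721 with a score of 10.63, above the second peak of the list (4.89, shared, at chr1:53266389-53266588). Its nearest LDB1 peak was 312 kb away and overlapped another ISL1 peak. Of the 10 highest scored ISL1 peaks 3 were ISL1-only, and of the 100 highest 23 (23.0%, interval 15.2% to 32.5%). The second ISL1-only peak, chr10:127533749-127533948, had a score of 4.11 and rank 4, and its nearest LDB1 peak was 446 kb away. The third, chr8:47637135-47637334, scored 3.01, and its nearest LDB1 peak, 229 kb away, was itself one of the strong ones of its list (score 2.86, rank 50). The next were chr7:135019158-135019357 (score 2.46, LDB1 988 kb away) and chr4:151699758-151699957 (score 2.43, LDB1 548 kb away).

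A pair of strong ISL1-only peaks lay close to LDB1. The peak at chr16:23843032-23843231, with a score of 2.2, stood 37 bp from the LDB1 peak at chr16:23842795-23842994, which had a score of 3.41 and rank 25 in the LDB1 list. Under a rule that accepts an LDB1 peak within 100 bp it would count as shared. The peak at chr14:8930550-8930749 (score 2.07) had an LDB1 peak 3912 bp away. The remaining 3 of the 10 strongest were chr12:112951306-112951505 (score 1.94, LDB1 71.2 kb away), chr3:87710083-87710282 (score 1.91, LDB1 1193 kb away) and chr4:133310222-133310421 (score 1.81, LDB1 258 kb away). The nearest LDB1 peak overlapped an ISL1 peak at the chr3:53267522-53267721 and chr8:47637135-47637334 sites and had none at the other 8 of these 10. At the other end, 3 ISL1-only peaks had the lowest score of the list, 0.45, at chr10:6977955-6978154, chr4:6792674-6792873 and chr6:11296058-11296257.

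**Figure D2:**
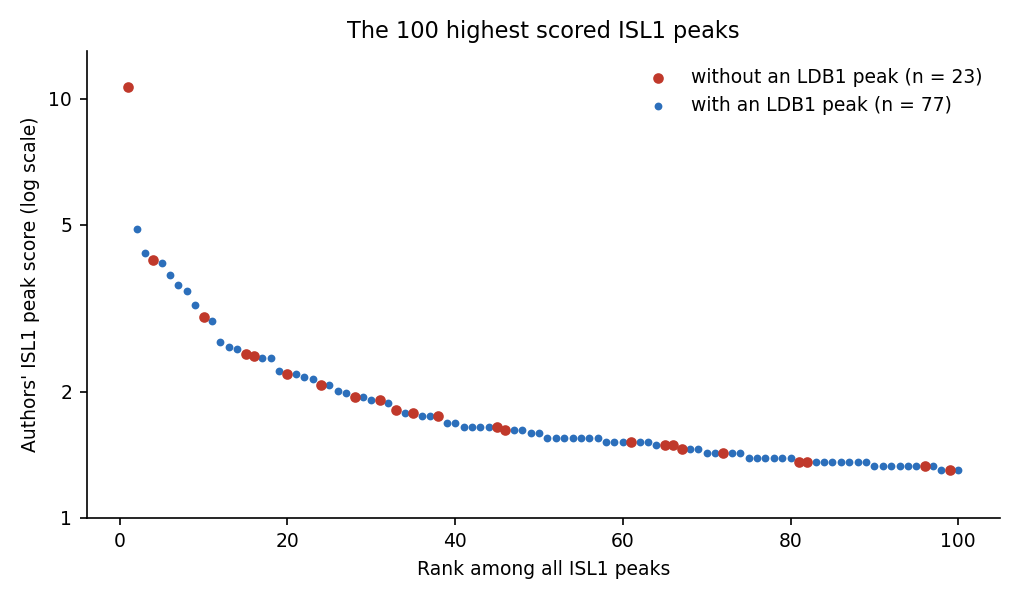
Authors' ISL1 peak score (log scale) of the 100 highest scored ISL1 peaks by rank, with peaks without an LDB1 peak in red and peaks with one in blue. The highest score, 10.63, belongs to a peak without LDB1, and 23 of the 100 are such peaks.

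Most ISL1-only peaks had no LDB1 peak within 100 kb. The gap between edges to the nearest LDB1 peak had a median of 222 kb over the 1285 peaks with an LDB1 peak on their chromosome (order-statistic 95% interval of the median 206 to 250 kb, quartiles 68.5 and 531 kb). It was under 1000 bp for 20 peaks, 1.6%, under 10 kb for 91 peaks, 7.1%, under 100 kb for 395 peaks, 30.7%, and 1 Mb or more for 119 peaks, 9.3%. ISL1 scores varied little with this distance. Their median was 0.565 in the 14 peaks with a gap under 200 bp, 0.55 in the 771 with a gap of 100 kb to 1 Mb and 0.58 in the 119 at 1 Mb or more, and Spearman's rho between score and gap was 0.01 across 1285 peaks of the same sample.

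Counted per kb of gap, ISL1-only peaks were densest right beside LDB1 peaks, directly past the boundary that the rule set. Centres of shared pairs lay up to 194 bp apart, and whether these nearest ISL1-only peaks continue that spread was not tested. The 14 peaks with a gap under 200 bp correspond to 70 per kb and the 6 peaks at 200 to 1000 bp to 7.5 per kb. The 29 at 2 to 5 kb correspond to 9.67 per kb, the 35 at 5 to 10 kb to 7 and the 197 at 100 to 200 kb to 1.97. A gap under 200 bp was found for 1.1% of ISL1-only peaks. To a further LDB1 peak it was found for 0.5% of shared and 0.4% of LDB1-only peaks. The smallest gaps were 0, 54 and 119 bp for ISL1-only, shared and LDB1-only peaks. In the last 2 groups a gap this small needs 2 LDB1 peaks side by side, so the shares at this range are not a like comparison. Under 1000 bp the shares were alike, at 1.6%, 2.0% and 1.6% in the same order, so closeness at that range was not particular to ISL1-only peaks. The LDB1 peaks beside the 14 ISL1-only peaks with a gap under 200 bp had scores from 0.73 to 3.41. Their median was 0.88, against 0.85 over the whole LDB1 list. Over the LDB1-only peaks, the class to which all 14 belong, it was 0.73. None of these 14 LDB1 peaks overlapped another ISL1 peak, which follows in part from the near absence of ISL1 peaks that close to each other. For 902 of the 1285 ISL1-only peaks, 70.2%, the nearest LDB1 peak had no ISL1 peak. The share of such peaks in the whole LDB1 list was 68.9%.

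ISL1-only peaks were farther from their nearest LDB1 peak, at the median of 222 kb given above, than shared ISL1 peaks were from a further one. Leaving out the overlapped LDB1 peak, the gap of shared peaks to the next one had a median of 147 kb (interval 133 to 164 kb). The gap from LDB1-only peaks to the next LDB1 peak had a median of 172 kb (interval 156 to 191 kb). An LDB1 peak lay under 100 kb away from 30.7% of ISL1-only peaks (interval 28.2% to 33.3%), 41.6% of shared peaks (interval 38.6% to 44.6%) and 38.2% of LDB1-only peaks (interval 36.2% to 40.2%). The order was the same within score classes. At scores under 0.6 it was 30.9% of 871 ISL1-only and 42.0% of 283 shared peaks, at 0.6 to 0.79 it was 32.6% of 298 and 42.1% of 368, and at 0.8 or more 24.8% of 117 and 40.7% of 393. Peaks along a chromosome are not independent and come from 1 sample per antibody, so these differences were not tested and the intervals cover counting error only.

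**Figure D3:**
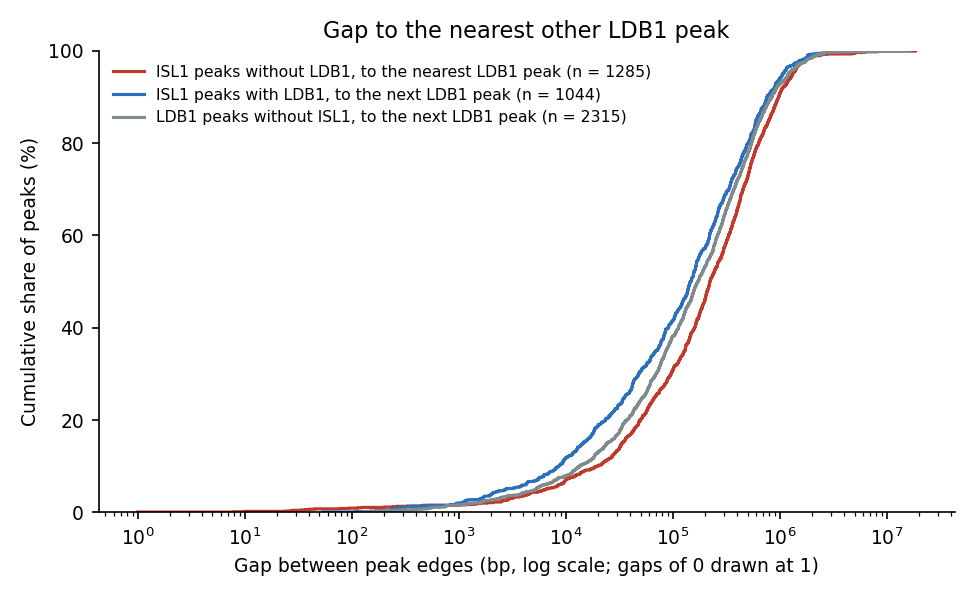
Cumulative share of peaks by the gap between peak edges (bp, log scale) to the nearest LDB1 peak, for ISL1-only peaks, and to the next LDB1 peak besides the overlapped or own one, for shared ISL1 peaks and LDB1-only peaks. The curve of ISL1-only peaks lies to the right over most of the range, with a median of 222 kb against 147 and 172 kb.

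The most distant sites were on chromosomes 7 and X. The peak at chr7:6836187-6836386 (score 0.75) was 18.7 Mb from the nearest LDB1 peak. It and 2 further ISL1-only peaks, among them chr7:19716674-19716873 with a score of 1.75 and a distance of 5.77 Mb, were the 3 ISL1 peaks before the first LDB1 peak of chromosome 7, which starts at position 25488585. On chromosome X the peaks at chrX:74754515-74754714 (score 0.58) and chrX:74826284-74826483 (score 0.49) lay 71.6 kb apart and 8.19 and 8.26 Mb from LDB1, and chrX:90537647-90537846 (score 0.62) lay 6.29 Mb away. The 1 ISL1 peak on chromosome Y, chrY:1655852-1656051 with a score of 0.65, was on a chromosome with no LDB1 peak.

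ISL1-only peaks were mostly solitary. With peaks joined when no more than 12500 bp apart, 1187 of the 1286 stood alone and 99, 7.7% (interval 6.3% to 9.3%), were in groups of 2 or more ISL1 peaks, against 89 of 1044 shared peaks, 8.5% (interval 6.9% to 10.4%). Of the 91 groups, 32 held ISL1-only peaks alone, 33 held both kinds and 26 held shared peaks alone, and no group had more than 3 peaks. The gap from an ISL1-only peak to the next ISL1 peak of either kind had a median of 295 kb (interval 273 to 321 kb), and that of shared peaks 251 kb (interval 218 to 280 kb). The nearest shared ISL1 peak was a median of 792 kb away from an ISL1-only peak and under 10 kb away in 26 cases, 2.0%. That gap is to the 1044 shared peaks and the 295 kb gap to any of the 2330 ISL1 peaks, so the 2 medians are not comparable. Neither an LDB1 peak nor another ISL1 peak lay within 100 kb of 751 ISL1-only peaks, 58.4% (interval 55.6% to 61.1%), and neither a further LDB1 peak nor another ISL1 peak lay within 100 kb of 537 shared peaks, 51.4% (interval 48.4% to 54.5%).

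At the shortest distances the pairs were mainly of 1 kind. Of 18 pairs of neighbouring ISL1 peaks with a gap under 1000 bp, 14 consisted of ISL1-only peaks, 1 was mixed and 3 consisted of shared peaks. Of all 2309 neighbouring pairs, 726, 31.4%, consisted of ISL1-only peaks, 47.5% were mixed and 21.0% consisted of shared peaks. With a gap under 12500 bp, 35.1% of 97 pairs were mixed. Some of the 14 close ISL1-only pairs included strong peaks. At chr11:94851154-94851353 and chr11:94852122-94852321 the scores were 1.36 and 0.91, and at chr8:86422904-86423103 and chr8:86423762-86423961 they were 0.84 and 1.23. In 2 groups there were 3 ISL1-only peaks and no shared one. One spanned 3395 bp on chromosome 4, with scores of 1.81, 0.84 and 0.75 from chr4:133310222-133310421 to chr4:133313417-133313616, and was 258.4 kb from LDB1 at its nearer end. The other spanned 4478 bp on chromosome 14, with scores of 1.52, 0.68 and 1.07 from chr14:58690923-58691122 to chr14:58695201-58695400, and was 667.1 kb from LDB1.

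Over longer distances the 2 kinds of ISL1 peak were intermixed. The next ISL1 peak along the chromosome had no LDB1 peak after 56.9% of ISL1-only peaks (interval 54.2% to 59.7%) and after 53.0% of shared peaks (interval 49.9% to 56.1%). The longest uninterrupted run held 13 ISL1-only peaks over 13.89 Mb of chromosome 1, from position 137406922 to 151293921, and 8 LDB1 peaks lay within it. The longest run of shared peaks held 9 over 2.13 Mb of chromosome 5.

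ISL1-only peaks occurred on all 21 chromosomes with an ISL1 peak, from 38 on chromosome 19 to 111 on chromosome 1 among the autosomes. Among the autosomes their share of a chromosome's ISL1 peaks ranged from 48.9% on chromosome 10 to 63.4% on chromosome 1. The interval held the overall share, 55.2%, on 18 of 19 autosomes. The exception was chromosome 1, at 63.4% of 175 peaks (interval 55.8% to 70.6%), and 1 exception among 19 such intervals is not a result about that chromosome. Chromosome X had 11 ISL1-only peaks of 25, 44.0% (interval 24.4% to 65.1%), with scores of no more than 0.62. Median scores of ISL1-only peaks were 0.52 to 0.58 on every autosome. Their median gap to LDB1 was more variable, from 99.4 kb on chromosome 13 to 497 kb on chromosome 11.

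**Figure D4:**
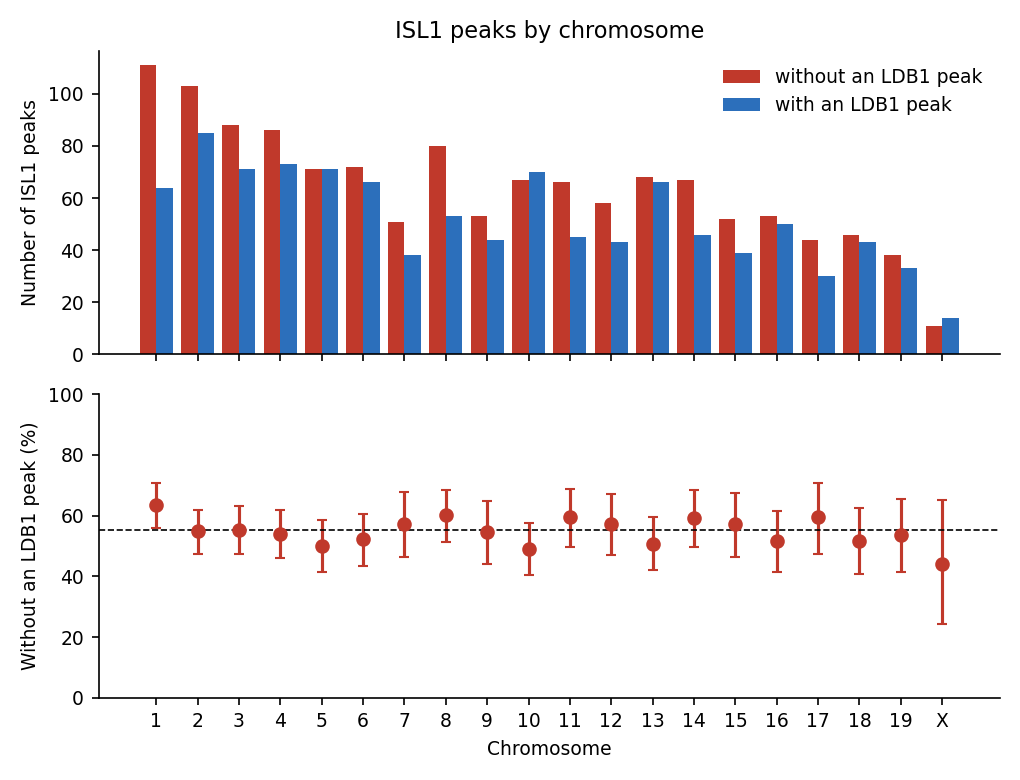
Number of ISL1 peaks without and with an LDB1 peak on each chromosome (upper panel, bars) and percent without one (lower panel, points with exact 95% binomial intervals, dashed line at the overall 55.2%). Chromosome Y, with 1 peak, is not drawn, and the interval of chromosome 1 alone among the autosomes lies above the line.

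Gene positions on mm9 were not used here, so no gene was assigned to a site, and the RNA values bear on the 2 factors and their partners. The comparisons asked how loss of either factor in β-cells changes RNA, and both used the same 5 WT libraries. The Isl1-KO cells differed from the WT cells in genotype, in age (day 49 against day 56) and in tamoxifen (100 against 150 µg per g, and no second round), and these cannot be told apart in any Isl1-KO difference below. Values were taken to be log2 of a normalized value plus 1. Whether each library is a separate mouse is not stated, and the p-values cover the spread between libraries, which may be technical. Isl1, the gene of the factor whose peaks are described here, had values of 9.08, 9.43, 9.04, 9.66 and 9.43 in Isl1-KO libraries and of 9.58, 9.66, 9.61, 9.36 and 9.53 in WT libraries. The groups overlapped, and the difference of -0.22 (SE 0.17) did not pass limma's test (adjusted p = 0.431). The table has 1 value for the whole gene, so this does not check the deletion. In Ldb1-KO libraries Isl1 ranged from 9.88 over a median of 10.62 to 11.05. All 8 lay above every WT library, and Isl1 rose by 1.01 (SE 0.15, limma adjusted p = 2.78e-05).

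Ldb1, the gene of the cofactor, had values of 7.61, 7.74, 7.21, 7.58 and 7.63 in Isl1-KO libraries and of 7.60, 7.59, 7.57, 7.11 and 7.66 in WT libraries, and the difference of 0.05 (SE 0.19) did not pass limma's test (adjusted p = 0.904). Without WT replicate 4 it was -0.05. In Ldb1-KO libraries Ldb1 ranged from 5.58 over a median of 6.45 to 6.88, below every WT library. It fell by 1.11 (SE 0.18, limma adjusted p = 4.35e-05), so Ldb1 RNA was still measured in all 8 libraries.

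**Figure D5:**
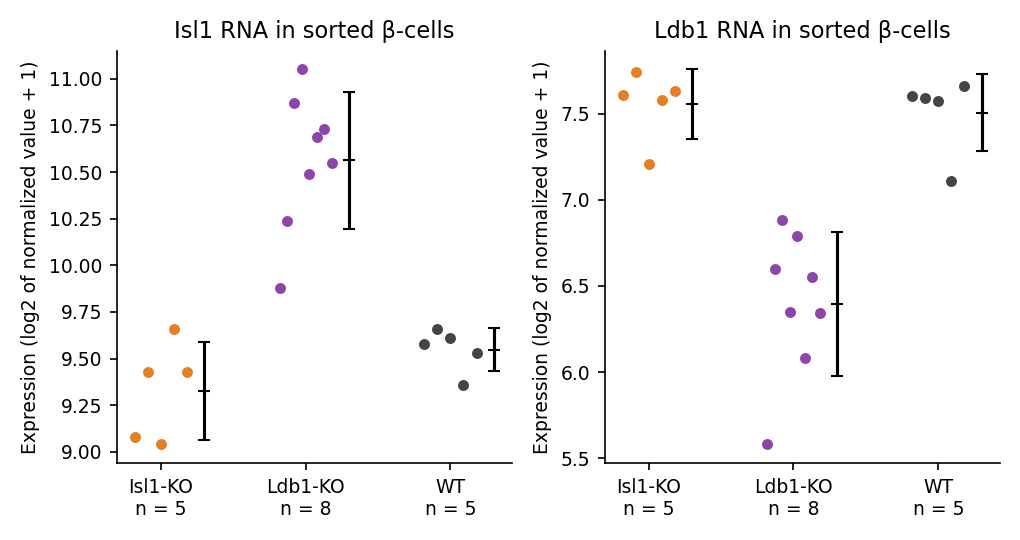
Isl1 and Ldb1 expression (taken to be log2 of normalized value plus 1) in each library of sorted β-cells, with the mean and SD beside the points. The 8 Ldb1-KO libraries lie above the WT libraries for Isl1 and below them for Ldb1, and the 5 Isl1-KO libraries overlap the WT libraries for both genes.

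Of 22 genes of LIM-homeodomain factors and their partners, all were in the table and 14 passed the filter on low values. In Isl1-KO cells 0 rose and 1 fell among the 14, while 7.02% of all 13501 genes tested rose and 8.39% fell, 15.4% in all. In Ldb1-KO cells 3 rose and 2 fell, while 10.6% of all genes rose and 11% fell, 21.7% in all. The median difference of the 14 genes was 0.06 in Isl1-KO and 0.11 in Ldb1-KO cells, against -0.03 and -0.01 over all genes. The gene that fell in both was Lmo1, which encodes a LIM-only protein that binds LDB1. It was listed at 0 in 4 of 5 Isl1-KO and 7 of 8 Ldb1-KO libraries, with 1.00 and 0.89 in the others, and lay between 1.82 and 3.33 in WT libraries. The differences on the log2 scale of value plus 1 were -2.60 (SE 0.40, limma adjusted p = 7.62e-05) and -2.69 (SE 0.36, limma adjusted p = 5.66e-06). The size depends on the added constant, and with 10 in place of 1 the differences were -0.67 and -0.69 (limma adjusted p = 5.67e-05 and 5.59e-06). Ssbp2, which encodes a protein that binds and stabilizes LDB1, lay between 6.65 and 7.26 in Ldb1-KO and between 6.08 and 6.97 in WT libraries. The groups overlapped, and it rose by 0.56 (SE 0.15, limma adjusted p = 0.00724). Lmo3, another LIM-only gene, was between 0.78 and 2.54 in Ldb1-KO libraries and listed at 0 in all 5 WT libraries (difference 1.41, SE 0.45, limma adjusted p = 0.0268), and its call was lost without Ldb1-KO replicate 2 or 3 or WT replicate 1 or 5 (limma adjusted p from 0.0505 to 0.0549). Of 27 islet transcription factor genes 22 were tested, of which 4 rose (Rfx3, Rfx6, Neurog3 and St18) and 3 fell (Pdx1, Mafa and Foxa3) in Isl1-KO cells. In Ldb1-KO cells 4 rose (Rfx3, Rfx6, Neurog3 and Irx2) and 4 fell (Pdx1, Nkx6-1, Mafa and Insm1). Pdx1 and Mafa encode activators of insulin gene transcription. Mafa also enters the β-cell marker mean below and Irx2 the α-cell marker mean, so those means are not separate observations of these genes.

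Marker means of α-cell, duct and β-cell genes shifted between these groups, and their part in the results was not tested. In such bulk libraries fewer cells of a type and less RNA per cell cannot be told apart. The mean over 3 α-cell genes was 7.75 to 9.57 in Isl1-KO, 8.52 to 10.12 in Ldb1-KO and 6.42 to 7.75 in WT libraries. The mean over 4 duct genes was 3.17 to 4.67, 3.67 to 4.44 and 2.20 to 3.31 in the same order of groups. The α-cell range of Isl1-KO libraries met that of WT libraries at 7.75, and the duct ranges of these groups overlapped. The mean over 6 β-cell genes was 11.31 to 12.89 in Isl1-KO, 10.04 to 11.74 in Ldb1-KO and 13.32 to 13.86 in WT libraries. That over 5 acinar genes was 1.72 to 4.34 in Isl1-KO, 2.08 to 5.52 in Ldb1-KO and 1.58 to 9.99 in WT libraries, with the highest value in WT replicate 1. Means over 2 δ-cell genes (4.03 to 6.59, 5.30 to 7.18 and 4.99 to 5.69) and of the PP-cell hormone gene Ppy (7.26 to 9.88, 7.28 to 9.52 and 7.19 to 8.40) overlapped. Those of mesenchyme genes were at 0 in all Isl1-KO libraries and no higher than 0.94 elsewhere. Means of immune genes reached 1.59 in Isl1-KO, 3.10 in Ldb1-KO and 2.34 in WT libraries. In the same order, neuron and glia genes reached 1.79, 2.92 and 1.91, and endothelial genes 0.81, 1.35 and 1.41.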

How the data were processed

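ISL1 and LDB1 peaks came from 1 whole-islet ChIP-seq sample each. Each peak has coordinates and a score in the deposited list. There is 1 list per factor, and the authors' peak names contain the word pool, so replicates cannot be compared. The submitters' processing notes name HOMER, edgeR and the build mm9. Caller settings and the unit of the score are not stated. Overlaps (at least 1 bp) and gaps between edges were computed in Python 3.11.15 with numpy and scipy 1.17.1, tested on simulated data, and the number of ISL1-only peaks was checked with bedtools 2.31.1. Shares have exact 95% binomial intervals. No genome or annotation on mm9 was used, so sites have no genes or sequences here.

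The authors' deposited table gives log2 expression for 21913 genes in 18 libraries, with 13353 to 14129 genes above 0 per library and correlations of 0.932 to 0.978 within groups. Its normalization is not stated. The values were taken to be the log2 of a normalized quantity to which 1 was added, and absolute depth is unknown. Fold changes (log2) and p-values that the authors deposited beside them were not used. Samples and columns were matched by title and description, with 0 columns of per-sample values unused. Genes averaging at least 1 on the unlogged scale were kept (13501), and both comparisons were tested in 1 fit of all libraries with limma 3.58.1 (trend, robust, statmod 1.5.0) in R 4.3.3, p-values being adjusted by Benjamini-Hochberg and called under 0.05. A count-based test was planned, but the table holds no counts. The peaks, gene lists and named genes (Isl1, Ldb1 and the members of a LIM-complex list that passed; the 10 strongest, most distant, nearest and most grouped peaks) were chosen with earlier results of these data known.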

Additional observations from a re-analysis of the deposited data

Results flagged for a closer look

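For 5 genes in 3 groups, 1 library was set against the others of its group by Dixon's test at the 95% level, in the 14 sets of values that were not all the same. Chance alone marks about 1 in 20 sets. Ldb1 was 7.11 in WT replicate 4, against 7.57 to 7.66 in the other WT libraries. Lmo1 was 1.00 in Isl1-KO replicate 5 and 0.89 in Ldb1-KO replicate 2, while the other libraries of both groups were listed at 0. With all others at 0 any value above 0 stands apart in this test, so the Lmo1 values are given as a description and are not to be counted against that rate.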

How the results depend on the processing

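The number of ISL1-only peaks, 1286 as reported, was between 1230 and 1467 under every alternative except a stricter ISL1 score. At or above the median ISL1 score it was 415 (35.3% of ISL1 peaks) and at or above the upper quartile 148 (25.3%), since fewer peaks enter. The share was 58.5% when 50% of the peak had to be covered, 52.8% when an LDB1 peak within 5000 bp counted as shared, and 63.0% when only LDB1 peaks at or above their median score could make a peak shared. The median score of ISL1-only peaks stayed below that of shared peaks in all 10 alternatives. Without a filter on low values 628 genes were higher in Isl1-KO than in WT cells, against 948 as reported, and more genes were tested. Leaving out 1 library at a time gave 676 to 1058 higher and 823 to 1200 lower genes in Isl1-KO cells, and 1150 to 1529 higher and 1181 to 1552 lower genes in Ldb1-KO cells. The Lmo3 difference in Ldb1-KO cells was 0.25 with a pseudocount of 10 (adjusted p = 0.0834 by limma). The Ldb1 difference in Isl1-KO cells ranged from -0.05, without WT replicate 4, to 0.13, without Isl1-KO replicate 3, and the cause was not tested. Correlations between libraries with the same replicate number ran from -0.167 to 0.164 for Isl1-KO with WT and from -0.119 to 0.256 for Ldb1-KO with WT, not all above 0.1 in either, and the numbers were not taken as pairs. With the replicate number as a block, Isl1-KO cells had 1052 higher and 1102 lower genes, Ldb1-KO cells 1632 and 1639, and no call of the 5 named genes changed. Tests of genes near peaks and count-based tests were not run, because gene positions on mm9 and counts were not used here. Peak lists without replicates limit every statement on sites to these 2 samples.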
